A study of Mus musculus with 6 samples.

Results

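In the primary visual cortex (V1) of 3 mice with 1 eye closed, 66 genes had more transcript in the hemisphere contralateral to the closed eye than in the ipsilateral hemisphere of every mouse, and they are described here. They were chosen by that difference itself. A gene was a member when its mean level over the 6 libraries was at least 2 CPM (its reads scaled to a library total of 1000000 gene reads), it did not lie on the mitochondrial chromosome, and log2 of its contralateral over its ipsilateral level, each with 0.5 CPM added, was at least 0.4 in each of the 3 mice. Otof, Adamts2 and genes whose symbols start with Kcn, Robo, Cacna1, Rpl or Rps were left out by name, which removed 3 of the 69 genes that met the ratio (Otof, Robo3 and Adamts2). The 66 members stand among 52636 genes in the count table, of which 15024 passed the CPM floor. Because the hemispheric ratio selected the members, their ratios and fold changes are a description, carry no test here and support nothing.

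The tissue came from C57BL/6J wild-type animals, 28 days after birth, whose right eyelids had been sutured for 3 days. From each of the 3 mice both hemispheres were taken by micro-dissection: left V1 is the contralateral and right V1 the ipsilateral sample, and each gave 1 library of total RNA, 6 in all. All libraries therefore come from deprived mice, and the ipsilateral hemisphere, which also receives some input from the closed eye, is the only reference. No library from a mouse with both eyes open enters the comparison. Bulk tissue was sequenced, so a difference in the share of cells of a type and a difference in RNA per cell cannot be told apart.

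As background, most axons of each mouse optic nerve cross to the opposite side, so contralateral V1 takes most of its input from the sutured eye, while ipsilateral V1 is driven largely by the unsutured eye. Closing an eye during the juvenile critical period shifts cortical responses toward the open eye, and loss of input lowers the transcription of activity-regulated genes such as Fos and Egr1. The genes described here are those with more, not less, transcript on the deprived side.

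The promoters of 4 members are printed first, because the start site is where a shared element could be looked for. The rule took each gene by its own ratios, so membership is no sign that the members share control. They are the members with the largest smallest ratio that had an entry in RefSeq's promoter table (GRCm38.p6). Each runs 5′ to 3′ on the gene's strand, from 250 bases before to 50 bases after the annotated start. Capitals mark matches to the motifs named after them, on either strand.
Psrc1 promoter, chr3:108383554-108383853, plus strand: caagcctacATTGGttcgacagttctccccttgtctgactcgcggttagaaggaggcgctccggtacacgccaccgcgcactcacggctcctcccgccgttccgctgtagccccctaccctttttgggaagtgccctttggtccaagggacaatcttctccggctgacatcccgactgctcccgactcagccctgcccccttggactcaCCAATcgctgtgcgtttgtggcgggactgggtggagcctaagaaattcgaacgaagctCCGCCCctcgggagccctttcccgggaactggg
Gm9839 promoter, chr1:32520950-32521249, minus strand: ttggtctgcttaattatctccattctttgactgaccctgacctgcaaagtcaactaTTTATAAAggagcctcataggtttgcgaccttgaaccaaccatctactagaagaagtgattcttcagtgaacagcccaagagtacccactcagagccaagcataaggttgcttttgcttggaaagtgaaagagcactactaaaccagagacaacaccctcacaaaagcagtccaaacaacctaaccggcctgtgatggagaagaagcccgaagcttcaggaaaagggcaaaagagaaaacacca
Dna2 promoter, chr10:62946779-62947078, plus strand: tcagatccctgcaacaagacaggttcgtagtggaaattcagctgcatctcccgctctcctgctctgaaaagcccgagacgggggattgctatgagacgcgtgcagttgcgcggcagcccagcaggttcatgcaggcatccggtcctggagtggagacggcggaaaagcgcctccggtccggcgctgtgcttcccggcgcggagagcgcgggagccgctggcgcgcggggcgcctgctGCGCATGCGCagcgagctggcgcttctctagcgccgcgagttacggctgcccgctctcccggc
Ggta1 promoter, chr2:35461400-35461699, minus strand: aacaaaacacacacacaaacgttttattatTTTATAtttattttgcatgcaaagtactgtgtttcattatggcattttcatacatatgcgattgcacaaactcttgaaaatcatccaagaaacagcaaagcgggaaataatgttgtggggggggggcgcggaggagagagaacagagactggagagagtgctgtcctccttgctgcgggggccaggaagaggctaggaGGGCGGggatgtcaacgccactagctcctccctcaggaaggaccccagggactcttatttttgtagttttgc

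The capitals in the Psrc1 promoter are a pair of CCAAT boxes (CCAAT, 1 of them read on the other strand as ATTGG) and a GC box (GGGCGG, read on the other strand). In the Gm9839 window the capitals are a pair of overlapping TATA elements (TATAAA), 1 on each strand. Those in the Dna2 window are 1 palindromic stretch that matches the letters GCATGCGC, searched as an element of the factor NRF1, once on each strand. The Ggta1 window holds 1 GC box and, on the other strand, 1 TATA element, and it lies inside the bounds GENCODE gives the gene. None of the searched motifs is common to all 4 windows.

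Over the 41 members with a promoter entry, 63.4% held a GC box against 64.1% of the 10453 genes above the floor with an entry. A CCAAT box was in 22% of member promoters and in 38.3% of those of all genes above the floor, and an E-box (CACGTG) in 14.6% against 10.1%. The AP-1 element (TGAGTCA) was in 3 of the 41 member promoters (7.32%, against 3.16%), the Egr element (GCGTGGGCG) in 1 (2.44%, against 1.25%), and the cAMP response element (TGACGTCA), bound by CREB, in 0 of 41 against 3.29%. Median GC content was 59.0% in member promoters and 61.3% in those of all genes above the floor. These are matches of letters in a window of 300 bases, on both strands, counted with no test.

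Depth and library make-up come before the values. Libraries held 17849253 to 32213500 gene reads, lowest in contralateral V1 of mouse 2 and highest in ipsilateral V1 of the same mouse. The mitochondrial ribosomal RNA mt-Rnr1 stood at 15 to 34.6 CPM in both libraries of mouse 1 and ipsilateral V1 of mouse 3, and at 2346 to 5759 CPM in the other 3, so the pair of mouse 3 crosses that split. Within the 3 low libraries the members' median fitted log2 difference was 0.63 and within the 3 high ones 0.56, against 0.63 over all 6. The low set has only 1 contralateral library and the high set only 1 ipsilateral one, which the fit assumes to vary like the others, so these fits mix mouse with hemisphere. Tissue make-up was read from fixed marker lists, of which only some are given here. The 6 excitatory neuron markers summed to 4431 to 4942 CPM contralaterally and 3858 to 4915 CPM ipsilaterally. The 14 interneuron markers summed to 536 to 587 and 679 to 787 CPM. Choroid plexus markers stayed at or under 3.42 CPM in every library. Lists drawn for other regions were not near 0. Hippocampus markers summed to 326 to 409 CPM contralaterally and 316 to 345 CPM ipsilaterally, and thalamus markers to 247 to 270 and 252 to 289 CPM. Striatum markers summed to 128 to 182 and 131 to 138 CPM, and retrosplenial cortex markers to 73.5 to 99.1 and 89.2 to 107 CPM. Whether neighbouring tissue was included was not tested. The 10 layer 6 neuron markers summed to 187 to 194 CPM contralaterally and 204 to 217 CPM ipsilaterally. Summed interneuron and layer 6 markers were thus lower in all 3 contralateral libraries, and their part in the members' values was not tested. No gene of the 18 marker lists is a member.

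Most members were genes of low level. Their median mean level was 4.36 CPM against 19.7 CPM over the genes above the floor, and per kilobase of exon (RPKM) 1.64 against 5.12; 37 of the 66 lay under 5 CPM, and 8 reached 20 CPM. At the median a member had 100 reads in a library, the lowest being 16 reads. The counting error of a member's log2 ratio, from its reads alone, had a median of 0.23 in mouse 1, 0.19 in mouse 2 and 0.21 in mouse 3, close to one another and not small beside the threshold of 0.4. These errors cover counting only.

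The share of genes that met the rule fell with level on this side and not on the other. Members were 1.26% of the genes between 2 and 5 CPM, 0.647% between 5 and 10 CPM, 0.247% between 10 and 50 CPM and 0.0235% (Crocc alone) above that. With the 3 genes dropped by name counted, the last pair of shares was 0.283% and 0.0470%. Genes with the mirrored difference, lower in contralateral V1 by the same ratio in all 3 mice, were 0.408%, 0.462%, 0.618% and 0.729% of those classes. Before the drops by name, 0.459% of the 15024 genes met the rule, and 88 genes (0.586%) met its mirror image.

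**Figure D1:**
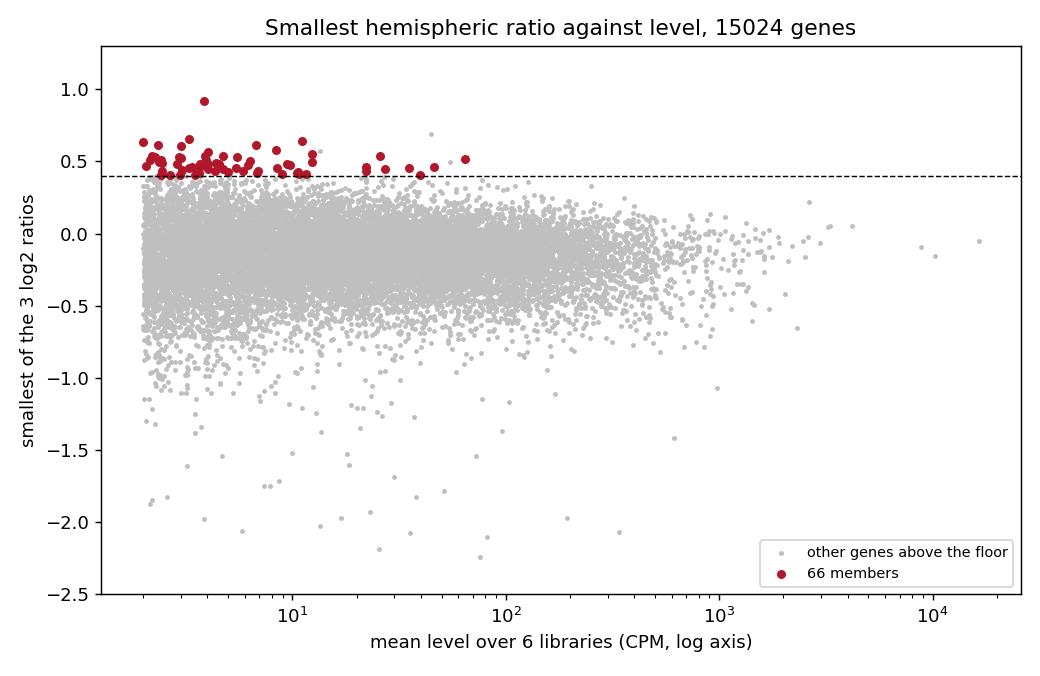
Smallest of the 3 log2 ratios (contralateral over ipsilateral, CPM + 0.5) of each of the 15024 genes above the floor, against the mean level over 6 libraries in CPM on a log axis; 2 genes fall outside the plotted range. Red points are the 66 members, the dashed line is the threshold of 0.4, and 37 of the members lie under 5 CPM; the 3 grey points above the line are the genes left out by name.

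The differences were modest. The fold of the contralateral over the ipsilateral mean had a median of 1.60 and ran from 1.39 (Crispld1) to 2.28 (Rnf207), and the smallest ratio of the 3 mice had a median of 0.48. All 3 contralateral libraries lay above all 3 ipsilateral ones in 53 of the members, as in 6.82% of all genes above the floor, and the rule that chose the members favours that pattern. In the other 13 the groups overlapped although each mouse went the same way, because mice differed in level. Of these, Crocc, Mdga1, Mfap2, Tfr2, Qtrt1 and Mamstr were highest in mouse 1 on both sides. Gm9839, Gm37911, Gm37891, Gm37470, Fndc8 and Grk4 were lowest in mouse 1 on both sides, and Morn1 was highest in mouse 2.

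In edgeR's quasi-likelihood comparison of the 3 contralateral with the 3 ipsilateral libraries, 0 of 20473 genes were called higher at an adjusted p of 0.05 (0%) and 26 lower (0.127%), while 672 genes (3.28%) were higher at an unadjusted p under 0.05. None of the members was called, and 56 were higher at the unadjusted level. DESeq2, over 34787 genes tested, called 7 genes higher, 3 of them members, and 88 lower. With the mouse as a block in edgeR, 40 genes (0.195%) were called higher and 143 (0.698%) lower, and 14 members were among the 40: Crocc, Evc2, Rnf207, Psrc1, L3mbtl1, Rreb1, Nup93, Lrrc45, Fam205a1, Map2k6, Mdga1, Ubxn11, Fxyd5 and Gm35339. Since the members were chosen on this contrast, nothing is read from these counts.

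**Figure D2:**
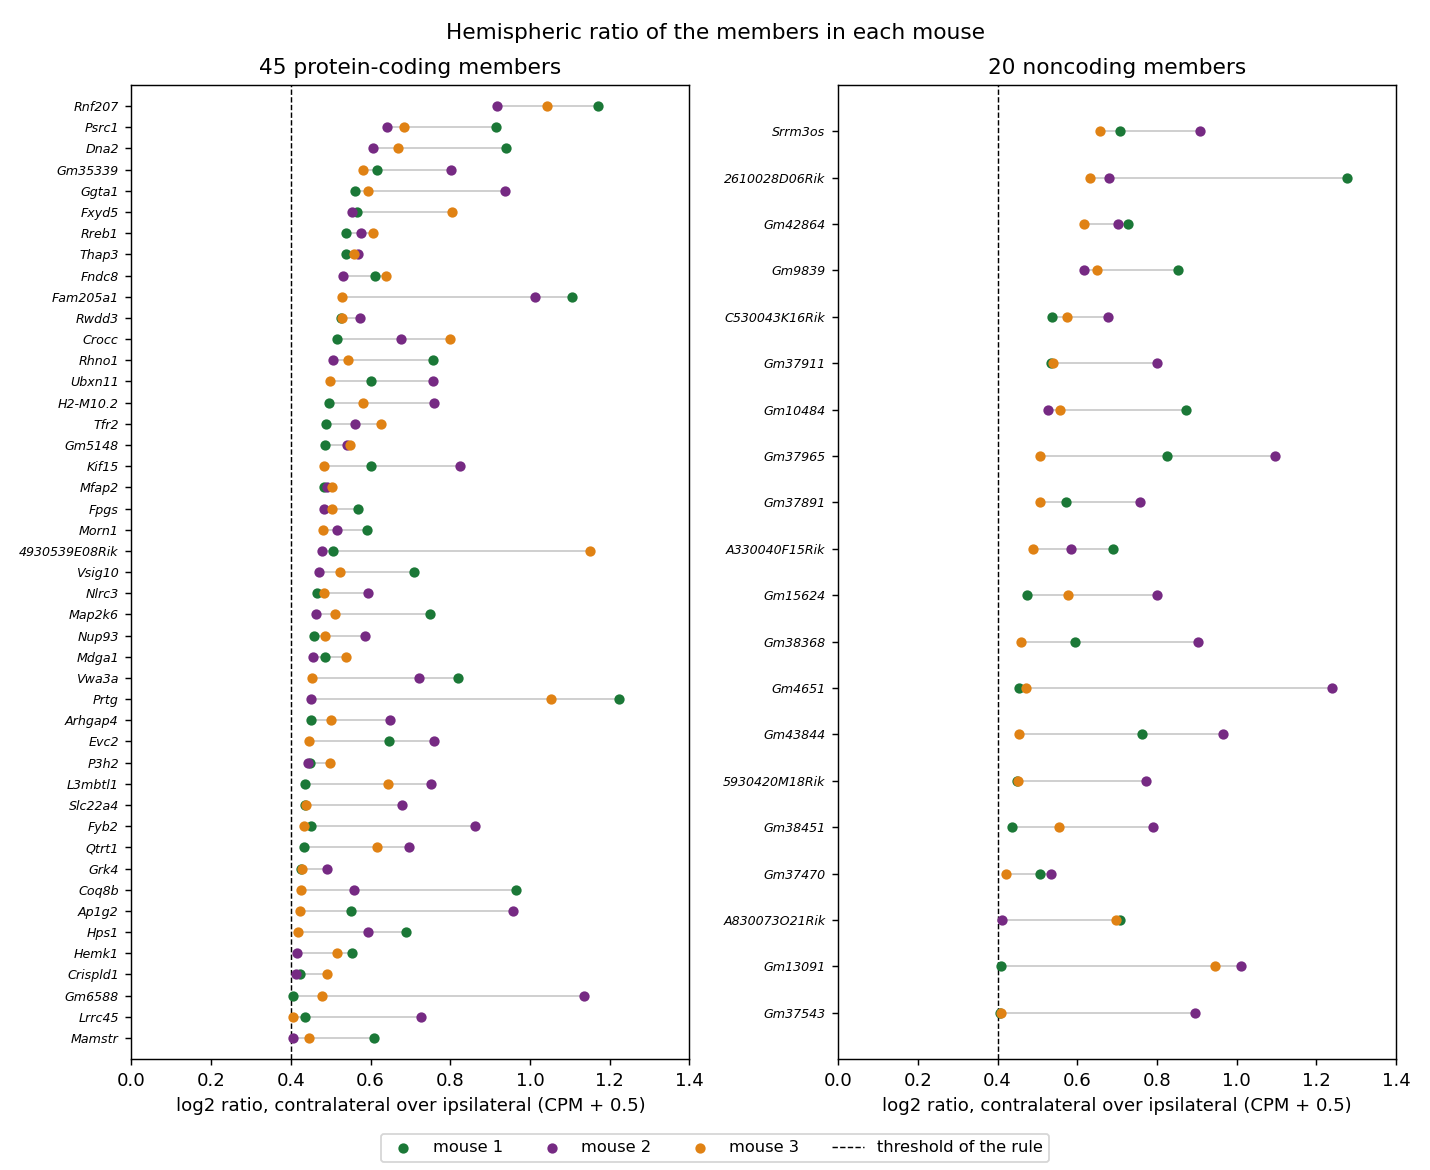
Log2 ratio of contralateral over ipsilateral level (CPM + 0.5) of 65 members, 1 row per gene and 1 point per mouse, with 45 of the 46 protein-coding members on the left and the 20 noncoding ones on the right. The dashed line is the threshold of 0.4, which every point passes by selection; Rnf207 has the largest smallest ratio (0.92), and purple points, mouse 2, are the largest of their row in 14 of the 20 noncoding members.

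The 46 protein-coding members include 42 with a named symbol and 4 predicted models. For description, the named ones are grouped below by what each is known for; the groups were drawn after the values were seen and are not a finding. Positions are in GRCm38, as GENCODE M21 gives them.

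Of the named members, 5 work at the cilium, the centrosome or the spindle. Crocc (chr4:141016637-141060550) encodes rootletin, the main protein of the ciliary rootlet and part of the linker between centrioles. It stood at 95.7, 77.9 and 62.0 CPM in contralateral V1 of mice 1 to 3 and at 66.7, 48.6 and 35.4 CPM in ipsilateral V1. In CPM, the mice differed on both sides by more than the hemispheres of a mouse did. The groups overlap (78.5 ± 16.8 against 50.3 ± 15.7 CPM, SD, n = 3), while the log2 ratio within a mouse was 0.52, 0.68 and 0.80. Per length, Crocc had a mean of 7.79 RPKM.

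Lrrc45 (chr11:120713925-120721128), a centrosomal linker protein, has the highest level per length of the members, at a mean of 12 RPKM. It measured 49.7, 52.7 and 38.5 CPM contralaterally and 36.6, 31.6 and 28.9 CPM ipsilaterally. The groups did not overlap, although the lowest contralateral library lay less than 2 CPM above the highest ipsilateral one. With a ratio of 0.41 in mouse 3, Lrrc45 is among the members just inside the threshold. Of 107 other genes in a list of leucine-rich repeat and immunoglobulin adhesion genes, drawn by symbol, 0 were called in either direction by edgeR (0 higher and 1 lower with the mouse block), with a median of -0.04.

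Evc2 (chr5:37338499-37425055), a protein at the base of the cilium that relays Hedgehog signals, measured 36.6, 33.2 and 29.0 CPM contralaterally and 23.2, 19.4 and 21.2 CPM ipsilaterally (fold 1.55). Psrc1 (chr3:108383839-108388231), a microtubule-associated protein of the spindle whose promoter is printed above, measured 16.3, 12.1 and 13.9 against 8.39, 7.57 and 8.49 CPM (fold 1.73). In both genes each contralateral library exceeded each ipsilateral one by a clear margin. Kif15, a mitotic kinesin, was low, at 5.02 ± 0.974 against 3.05 ± 0.641 CPM.

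In the nucleus, 7 members act. Nup93 (chr8:94214564-94317227), a scaffold subunit of the nuclear pore, measured 46.5, 59.4 and 56.4 CPM contralaterally and 33.7, 39.5 and 40.1 CPM ipsilaterally, with no overlap. Rreb1 (chr13:37778400-37952005), a zinc finger transcription factor that responds to Ras signalling, measured 29.1, 34.8 and 28.4 against 19.9, 23.2 and 18.5 CPM. Its log2 ratio was nearly the same in each mouse (0.54, 0.58 and 0.61), a spread below its counting error of 0.08 to 0.09.

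L3mbtl1 (chr2:162943472-162974522), a reader of methylated histones that compacts chromatin, measured 26.3, 30.9 and 23.4 CPM contralaterally and 19.3, 18.2 and 14.8 CPM ipsilaterally, again without overlap. Thap3 (chr4:151982639-151988997), a THAP domain protein, varied little between libraries of a group, measuring 5.75, 5.99 and 5.36 against 3.81, 3.88 and 3.48 CPM. Dna2 (chr10:62947026-62974185), a nuclease and helicase of DNA replication and repair, measured 3.42, 4.37 and 3.80 against 1.54, 2.70 and 2.21 CPM, from as few as 32 reads. Rhno1, a partner of the DNA damage checkpoint clamp, and Mamstr, a coactivator of MEF2 factors, had folds of 1.57 and 1.52.

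A further 8 members take part in signalling. Map2k6 (chr11:110399122-110525522) encodes MKK6, the kinase that activates p38 MAP kinases, and measured 27.2, 23.1 and 29.6 CPM contralaterally and 16, 16.6 and 20.6 CPM ipsilaterally (26.6 ± 3.28 against 17.7 ± 2.49, SD, n = 3). The groups did not overlap. Of 86 other kinases in a fixed list of the CaMK, PKA, PKC and MAPK groups, edgeR called 0 higher and 0 lower, and with the mouse block 0 higher and 4 lower, and their median log2 difference was -0.04.

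Rnf207 (chr4:152307019-152318993), a RING finger ubiquitin ligase best known from the heart, showed the largest difference of all members. It measured 5.50, 5.60 and 4.90 CPM contralaterally and 2.17, 2.73 and 2.12 CPM ipsilaterally, from 45 to 111 reads. Each contralateral library was above every ipsilateral one by more than 2 CPM, and the log2 ratios were 1.17, 0.92 and 1.04. The fitted log2 difference was 1.14 with a standard error of 0.23. Among 268 other ubiquitin ligases tested, 0 were called higher and 0 lower (0 and 1 with the mouse block), with a median of -0.02.

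Arhgap4 (chrX:73891442-73921870), a GTPase-activating protein, measured 4.86, 4.03 and 3.99 CPM contralaterally and 3.42, 2.39 and 2.67 CPM ipsilaterally. Grk4, a kinase of G protein-coupled receptors, Rwdd3, which promotes SUMO attachment, Nlrc3, an NLR protein that restrains innate immune signalling, Fyb2, an adaptor of the T cell receptor pathway, and Ubxn11, a UBX domain protein, had folds of 1.41 to 1.59. Over the 8 signalling members, the groups overlapped in Grk4 alone. The groups lay apart in 6.82% of all genes above the floor, and the rule favours that pattern.

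**Figure D3:**
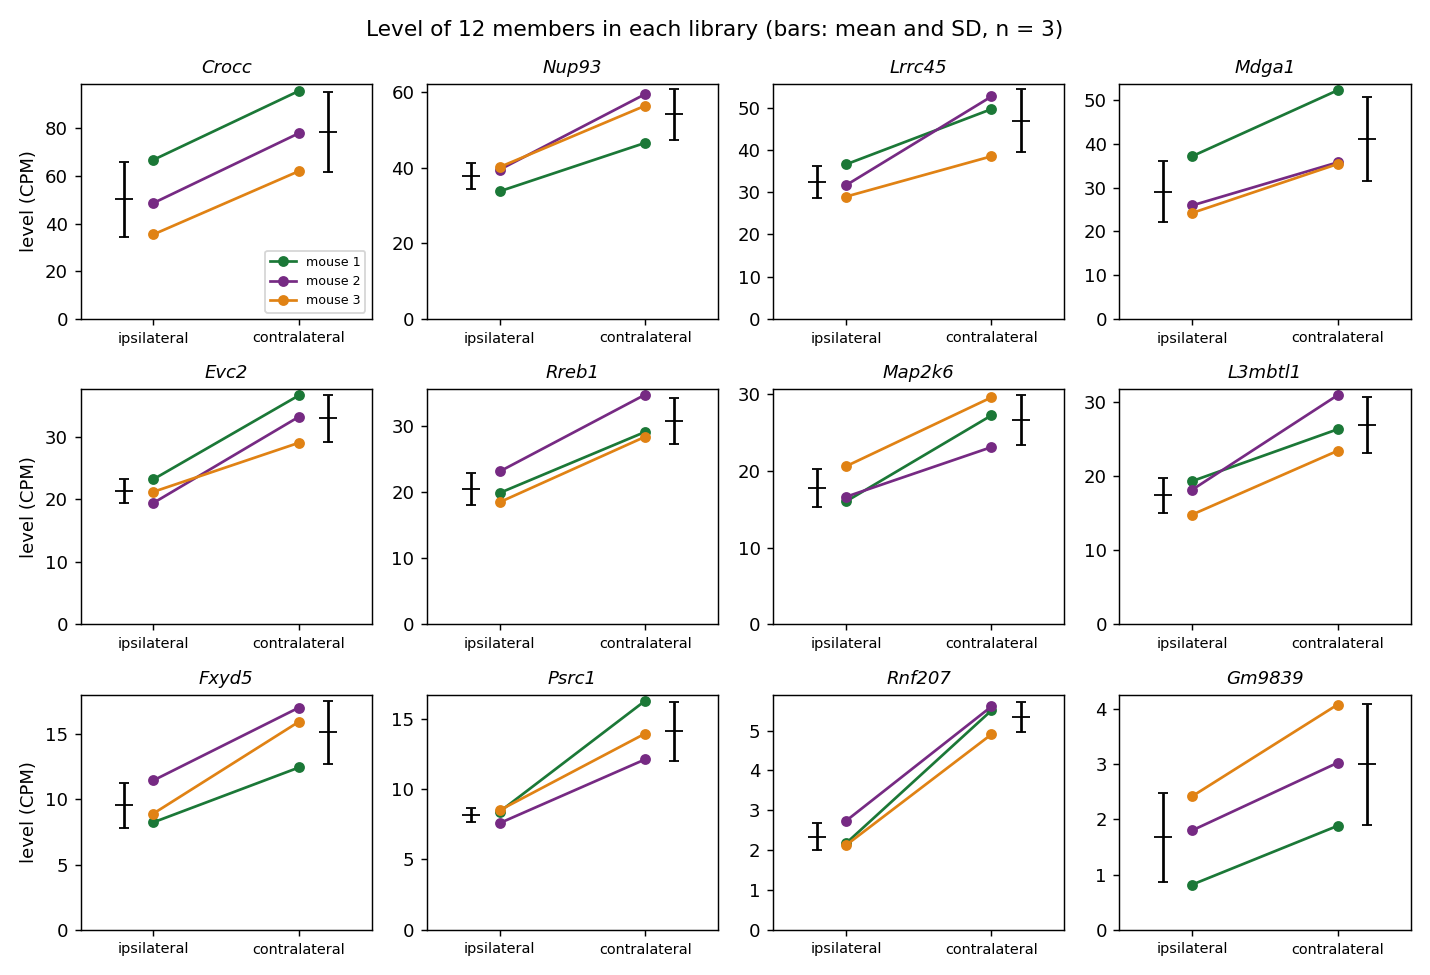
Level in CPM of 12 members in each library, ipsilateral on the left and contralateral on the right of each panel, with a line joining the hemispheres of a mouse; black bars give the group mean and SD (n = 3), and each vertical axis starts at 0. All 36 lines rise by selection; in Crocc, Mdga1 and Gm9839 the mice are spread so far that the groups overlap, and in Rnf207 and Psrc1 they are well apart.

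Another 9 members sit at the cell surface or in the matrix, or build its molecules. Mdga1, an adhesion protein that binds neuroligin-2 and so limits synapse formation, measured 52.3, 35.8 and 35.4 CPM contralaterally and 37.2, 26.0 and 24.2 CPM ipsilaterally. Mouse 1 was high on both sides and the groups overlapped, with ratios of 0.49, 0.46 and 0.54. Fxyd5 (chr7:31032722-31042481), a small membrane protein that regulates the sodium pump and cell adhesion, measured 12.4, 17.0 and 15.9 against 8.24, 11.5 and 8.91 CPM, with no overlap.

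Ggta1 (chr2:35400179-35463231), the enzyme that adds the terminal alpha-galactose of surface glycans, measured 3.87, 6.16 and 5.32 CPM contralaterally and 2.46, 2.98 and 3.35 CPM ipsilaterally. H2-M10.2 (chr17:36284227-36286490), a nonclassical MHC class I gene of a family of close copies, measured 2.38, 3.92 and 2.66 against 1.54, 2.11 and 1.61 CPM, and reads shared between copies make this count uncertain. Both were apart between hemispheres and both were highest in contralateral V1 of mouse 2. Of 28 other complement and MHC class I genes, 0 were called in either direction (0 higher and 1 lower with the mouse block), with a median of 0.06.

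Prtg, an immunoglobulin superfamily protein of the early embryo, had a large mean fold (1.98) and an uneven one: ratios of 1.22 and 1.05 in mice 1 and 3 and of 0.45 in mouse 2. Vsig10, Mfap2 (a microfibril protein), P3h2 (a collagen prolyl 3-hydroxylase) and Crispld1 had folds of 1.64, 1.49, 1.45 and 1.39. Of these, Mfap2 overlapped between groups. Mfap2 and Crocc are neighbours on chromosome 4, 653 bases apart, and share a pattern in which mouse 1 is high on both sides.

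A group of 8 members serves metabolism, transport or trafficking. Slc22a4 (chr11:53983123-54028090), a carrier of ergothioneine and organic cations, measured 3.17, 3.53 and 2.25 CPM contralaterally and 2.22, 2.02 and 1.53 CPM ipsilaterally. The lowest contralateral library was barely above the highest ipsilateral one. Of 283 other solute carriers, 0 were called higher and 0 lower, and with the mouse block 0 higher and 1 lower.

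Tfr2 (an iron sensor), Coq8b (coenzyme Q synthesis), Fpgs (retention of folates), Qtrt1 (queuosine in transfer RNA), Hemk1 (methylation of a release factor), Hps1 (biogenesis of lysosome-related organelles) and Ap1g2 (an adaptor of vesicle coats) had folds of 1.43 to 1.62. Coq8b differed between mice, with log2 ratios of 0.96, 0.56 and 0.43. Over the 8 genes, Tfr2 and Qtrt1 overlapped between groups. Fndc8, Fam205a1, Morn1 and Vwa3a are named without a role, and Fam205a1, with a fold of 1.96, belongs to a family of near copies.

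Of the 23 members with predicted symbols (Gm or Rik), 4 are annotated as protein coding. Over the 5743 other predicted genes tested, edgeR called 0 higher and 1 lower (8 and 6 with the mouse block), and their median log2 difference was 0.20 against 0.03 over all genes. Only 2377 predicted genes, members included, passed the CPM floor, so most of the 5743 lay below it. The list is drawn by symbol and holds noncoding loci as well as coding models. Gm35339 (chr15:76354432-76365201) measured 11.6, 10.8 and 8.75 CPM contralaterally and 7.42, 5.99 and 5.69 CPM ipsilaterally. 4930539E08Rik, Gm5148 and Gm6588 had folds of 1.64, 1.50 and 1.74. In all 4 models the groups did not overlap, a pattern that the rule favours and that 6.82% of all genes above the floor showed. The ratio of 4930539E08Rik was 1.15 in mouse 3 and 0.50 and 0.48 in the others.

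The 20 noncoding members were read separately, because whole classes of noncoding loci differed between hemispheres in mouse 2. They comprise 13 loci of the class TEC (single-exon loci that await experimental testing), 3 antisense genes, 2 processed transcripts, 1 sense-intronic gene and 1 lincRNA. TEC loci are 19.7% of the members and 6.34% of the genes above the floor. Counting both directions, 13 TEC loci met the rule and 0 met its mirror image.

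Over all 953 TEC loci above the floor, the median log2 ratio was 0.04 in mouse 1, 0.71 in mouse 2 and -0.05 in mouse 3, and 81.6% of them reached 0.4 in mouse 2. The 410 antisense genes had medians of 0.10, 0.51 and -0.03. Protein-coding genes had medians of 0.04, 0.04 and -0.05, and 6.43%, 12.2% and 4.63% of them reached 0.4 in mice 1 to 3. Over all genes above the floor these shares were 7.85%, 20.4% and 5.15%. For coding genes too, the criterion was thus met most often in mouse 2 and least often in mouse 3. Most TEC loci thus passed the criterion in mouse 2, and which of them became members turned on mice 1 and 3.

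The same shift shows in the share of reads. TEC loci took 1.03% of gene reads in contralateral V1 of mouse 2 and 0.612% to 0.80% in the other 5 libraries. Contralateral V1 of mouse 2 is also the library of lowest depth. Its part in the TEC members was not tested. With each ratio centred on its biotype's median in that mouse, a step chosen after the data were seen, 39 of the 46 protein-coding members still met the rule, 0 of the 13 TEC members and 0 of the other 7 noncoding ones. In mouse 2 the step takes 0.71 from each TEC locus and 0.04 from each coding gene. These counts thus largely restate the medians of the classes and do not sort the members.

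**Figure D4:**
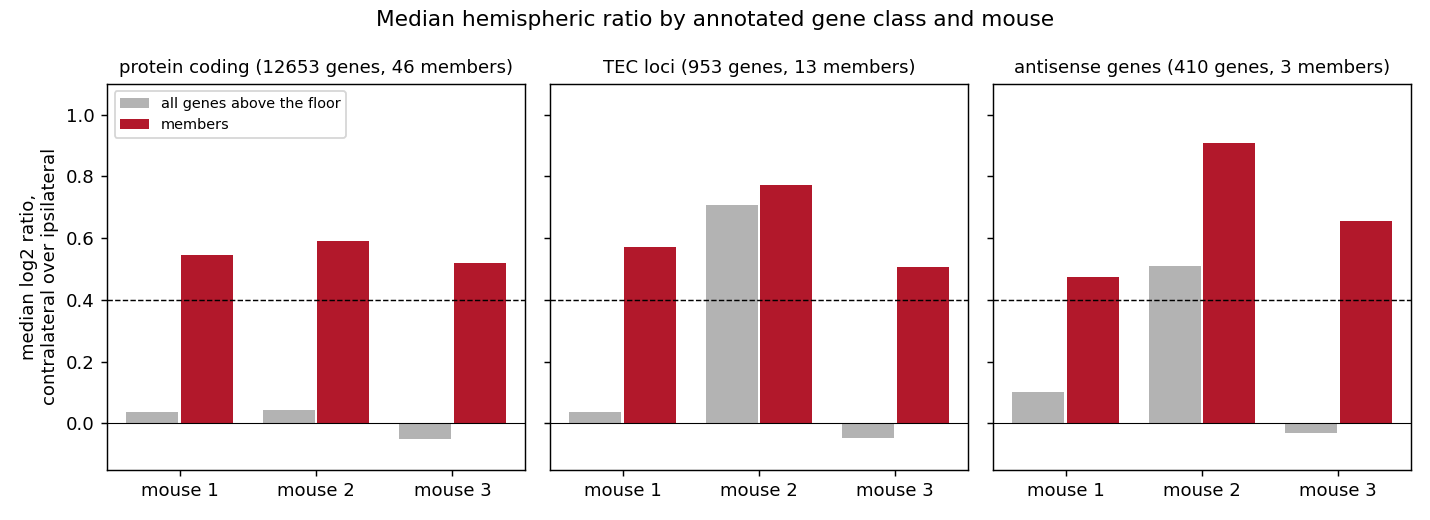
Median log2 ratio (contralateral over ipsilateral, CPM + 0.5) in each mouse for protein-coding genes, TEC loci and antisense genes, with all genes above the floor in grey and the members in red; the dashed line is the threshold of 0.4. The grey bar of TEC loci reaches 0.71 in mouse 2 and lies near 0 in mice 1 and 3, while grey bars of protein-coding genes lie near 0 in all 3 mice.

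By value, the noncoding member with the largest smallest ratio is Srrm3os (chr5:135843057-135844946), an antisense gene within Srrm3, which encodes a neuronal splicing regulator. It measured 3.62, 5.10 and 4.03 CPM contralaterally and 2.02, 2.48 and 2.38 CPM ipsilaterally. Srrm3 differed the same way, with log2 ratios of 0.39, 0.45 and 0.31 against 0.71, 0.91 and 0.66 for Srrm3os. Without the strand setting, reads of this pair cannot be told apart where their exons overlap.

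Gm42864 (chr5:112649367-112652112), the lincRNA, measured 7.98, 7.84 and 9.44 CPM contralaterally and 4.63, 4.63 and 5.98 CPM ipsilaterally, with similar ratios in every mouse (0.73, 0.70 and 0.62). 2610028D06Rik (chr9:45797348-45799060), a TEC locus in Cep164, measured 2.58, 2.69 and 2.84 against 0.771, 1.49 and 1.66 CPM. Its ipsilateral value in mouse 1 rests on 16 reads, the fewest of any member, and the counting error of that mouse's ratio of 1.28 was 0.41. Gm13091 (chr4:150566869-150568544), antisense within Rere, measured 2.53, 4.26 and 3.90 against 1.78, 1.86 and 1.78 CPM.

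Gm9839 (chr1:32519563-32520999), whose upstream window is printed above, measured 1.88, 3.03 and 4.08 CPM contralaterally and 0.819, 1.80 and 2.42 CPM ipsilaterally. The mice differed as much as the hemispheres, and the groups overlapped. Gm9839 and a second TEC member, Gm37911, both lie in Khdrbs2, which encodes a neuronal RNA-binding protein, and the host gene had log2 ratios of 0.25, 0.67 and -0.02. Within the 3 libraries low in mt-Rnr1, where 1 contralateral library (mouse 1) is set against those of ipsilateral V1 of mice 1 and 3, the fitted log2 difference of Gm37911 was -0.0048. Mice differed in its level, so that fit mixes mouse with hemisphere.

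Of all members, 19 lie wholly within another gene above the floor, and of these 12 are TEC loci and 11 are on the strand of the host. That is 28.8% of the members against 11.6% of genes above the floor, among protein-coding genes 4.35% against 2.24%, and among TEC loci 92.3% against 89.1%. Within the TEC class the members' share is thus near that of all its loci. None of the 18 hosts met the rule. The hosts' median log2 ratios were 0.22, 0.33 and 0.08 in mice 1 to 3. The nested members, which unlike the hosts were selected on this ratio, had medians of 0.53, 0.80 and 0.54. The host medians were above those of all genes (0.04, 0.09 and -0.05), and a part of total RNA is unspliced, so intronic reads of a host can be counted for a locus inside it. How many were was not tested.

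Among other properties that the rule did not use, protein-coding members had a median exonic length of 4426 bases against 4612 for all coding genes above the floor and a median of 47 annotated exon intervals against 29, and 63.0% had an annotated transcript with a retained intron against 58.7%. Chromosome 5 held 10 members and chromosome 4 held 9, that is 15.2% and 13.6% of the members against 7.22% and 5.64% of genes above the floor. Only 4 members had another member within 100 kb. No member hosts any of the 1488 circular RNAs counted in these libraries, whereas 5.46% of genes above the floor host one, and those hosts had a median level of 101 CPM.

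At the edge of the rule, Mamstr (0.4054), Lrrc45 (0.4055), Gm6588 (0.4065) and Gm37543 (0.4069) were the members with the smallest ratios. Ackr2 (0.3999), a scavenger receptor of chemokines, Gpr161 (0.3998), a ciliary receptor, Gm37517 (0.3988) and Tmem210 (0.3985) were just outside it. Members and non-members thus adjoin, with no gap at the threshold.

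Outside the set, the genes whose level followed the members' mean scaled level most closely over the 6 libraries were Gpr75 (Pearson's r = 0.997), Tnrc6c (0.993), Mical3 (0.990), Wipf2 (0.987) and Stat2 (0.984). The 6 points share 3 mice and 2 hemispheres, so r is a description. Gpr75 measured 9.67, 10.3 and 9.49 CPM contralaterally and 7.90, 8.16 and 8.02 CPM ipsilaterally, a smaller fold (1.22) with little spread. Mical3, the host of the noncoding member Gm4651, had log2 ratios of 0.45, 0.49 and 0.33 and so missed the rule in mouse 3 alone. Stat2, a factor of the interferon response, missed it in mouse 3 as well (0.47, 0.59 and 0.32).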

How the data were processed

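The authors deposited raw read counts for each Ensembl gene and library, with the columns that featureCounts writes, per the file headers. RNA was extracted with TRIzol and made into stranded total RNA libraries, per the labels' protocols. HISAT2, featureCounts, limma, DESeq2 and the build GRCm38 appear in the submitters' processing notes without versions or roles. How strand was handled and which annotation release was used are not given in the sources consulted. A deposited table of back-splice read counts was used only to look for circular RNAs hosted by members, and the authors' normalized circular RNA values were not used.

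Symbols, biotypes and positions came from GENCODE M21, which holds 52489 of the 52636 IDs, and 62 of the 66 members had the same bounds in the deposited table. CPM is reads over the library's gene reads, scaled to 1000000. RPKM divides that by the exonic length in the table.

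The members, the gene lists and the tests were chosen with earlier results of these data known. Hemispheres were compared with edgeR 4.0.16 in R 4.3.3 (quasi-likelihood test after TMM, genes kept by filterByExpr at a minimum count of 10 and total of 15, Benjamini-Hochberg adjustment over 20473 genes, threshold 0.05), tested first on simulated data; DESeq2 1.42.0 was an alternative. P-values of the main comparison measure the spread between libraries of a side and leave the pairing by mouse out. With the mouse as a block, they rest on the differences within a mouse, over 3 mice. Replicate numbers pair the libraries, since the titles name the mouse. Deviations from the group means correlated between the hemispheres of a mouse at 0.43, 0.08 and 0.17, and at most at -0.19, 0.18 and 0.18 with another mouse's library.

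Values in every library are given for members of the gene lists other than that of predicted genes, the 12 with the largest smallest ratio and the 8 with the highest RPKM; members with predicted symbols outside these sets are given by counts and ranges, with a few named. Mdga1 and Gpr75 were added for description. The values of 1 member are not reported here, although it stays in the counts over all members. Promoters came from RefSeq's table (GRCm38.p6).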

Additional observations from a re-analysis of the deposited data

How the results depend on the processing

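The number of genes that met the rule moved with each of its choices. It was 22 with a pseudocount of 2 CPM and 95 with 0.1 CPM, 116 with a floor of 1 CPM and 29 with 5 CPM, 203 at a threshold of 0.3 and 23 at 0.5. Leaving out 1 mouse, which loosens the rule by construction, gave 278 genes without mouse 1, 139 without mouse 2 and 536 without mouse 3. Of all genes above the floor, 7.85%, 20.4% and 5.15% reached 0.4 in mice 1 to 3. TMM scaling gave 56 genes, 42 of them among the 66, and library totals without mitochondrial genes gave 91, with all 66 among them. Centring each mouse on the median of all genes, chosen after the data were seen, gave 60 with 46 shared, and centring by biotype gave 50 with 39 shared. Members called numbered 0 in edgeR, beside 0 of 20473 genes called higher, and 14 with the replicate block, beside 40 of 20473. They numbered 3 with DESeq2's Wald test, beside 7 of 34787 genes called higher. With no filter on low counts they numbered 3, beside 19 of 34788. Nothing is read from these counts, since the members were chosen on this contrast. Genes called in either direction numbered 26, against 183 with the replicate block, 95 with DESeq2's Wald test and 109 with no filter, and 0 to 39 with 1 mouse or library left out, being 0 without mouse 2 and 0 without contralateral V1 of mouse 2 (521 and 833 genes at an unadjusted p under 0.05). The cause of these moves was not tested, apart from the choices that loosen or tighten the rule by construction. The members' median log2 difference was 0.63 and fell to 0.56 within the libraries high in mt-Rnr1. Over all 66 members the lowest fitted value under any alternative was -0.0048 (Gm37911, within the libraries low in mt-Rnr1). Since the members were selected on the same libraries, a sign that holds under these alternatives is no sign of stability. Depth limits most members, at a median of 100 reads in a library and a median counting error of 0.19 to 0.23 in a mouse's log2 ratio.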
